A study of Homo sapiens with 2 samples.

Results

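The lamins, their partners in the nuclear envelope and the HMG proteins were followed in lung fibroblasts after silencing of periostin. The set held 10 genes, and all of them were found among the 21743 genes that could be named on the array. They were LMNA, LMNB1, LMNB2, LBR, TMPO, HMGB1, HMGB2, HMGB3, HMGA1 and HMGA2, taken by gene symbol through the RefSeq accession that the scanner files give for each probe. They were read by 16 probes, each printed 1 time on the array. MRC-5 cells, a line of fetal human lung fibroblasts with a normal karyotype and a limited lifespan in culture, were transfected with control siRNA or with periostin siRNA (10 nM for 48 h), without any other agent or allele named in the labels. RNA of each condition was hybridised to 1 single-colour Agilent array, so that no value below has a replicate check and no test between the conditions was possible. Periostin, encoded by POSTN, is a matricellular protein that fibroblasts secrete, and the study compared the arrays to find genes whose expression depends on it.

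The nuclear lamina is a meshwork of lamins beneath the inner nuclear membrane. A-type lamins (lamin A and lamin C) are spliced from LMNA and are present mainly in differentiated cells, whereas the B-type lamins come from LMNB1 and LMNB2. LBR, the lamin B receptor, and the LAP2 proteins encoded by TMPO bind lamins and chromatin and tether heterochromatin to the envelope. HMGB proteins bend DNA through HMG boxes, and HMGA proteins bind the minor groove of AT-rich DNA through AT hooks. Loss of lamin B1 and of nuclear HMGB proteins is a known feature of senescent fibroblasts, in which HMGA proteins can accumulate in condensed heterochromatin foci. Several of these genes are also transcribed in a cell-cycle-dependent manner, so that fewer dividing cells and less RNA per cell cannot be told apart in bulk RNA.

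The POSTN probe checked the labels. Its scaled signal, which is the scanner's background-subtracted brightness once both arrays share the same 75th percentile, was 2638 for control siRNA against 280 after silencing, or 9.43-fold lower (log2 ratio -3.24, propagated spot error 0.20). The cell type was checked against markers. All 8 fibroblast markers were well above background on both arrays, and their log2 ratios had a median of -0.10. For the epithelial markers, the summed signal was 237 with control and 532 with periostin siRNA, against 351191 and 316250 for the fibroblast markers. EPCAM, an epithelial adhesion molecule, was at 34.6 and 135, KRT19 at 167 and 342 and SFTPC at 33.8 and 53.3, whereas CDH1 was not well above background on either array. With the normexp background model, described below, the log2 ratio of EPCAM went from 1.97 to 1.08. The summed signals were 124 and 128 for the endothelial markers, with PECAM1 not well above background. They were 26.5 and 36.3 for the leukocyte markers, with HLA-DRA not well above background. Of the other leukocyte markers, CD3E was well above background with periostin siRNA only, and LYZ had no named probe. The part of the epithelial markers in the results below was not tested.

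Pairs of signals are given with control siRNA first, and ratios as periostin siRNA over control siRNA. All 10 genes had a log2 ratio below 0 by the brightest probe, in a data set where 45.5% of the 16052 genes with a ratio were below 0. The median of the 10 log2 ratios was -0.69, against 0.06 for all genes. LMNB1, LBR and TMPO were lower by more than 2-fold, as were 6.42% of all genes. LMNB1 and LBR were also lower by more than 3-fold, the threshold the study used, as were 2.75% of all genes. None of the 10 was higher by more than 2-fold or 3-fold, which held for 7.97% and 3.37% of all genes. Among all genes ordered from the lowest ratio, LMNB1 took rank 61, LBR rank 161 and TMPO rank 494, whereas LMNA took rank 4564 and HMGA2 rank 5537.

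**Figure D1:**
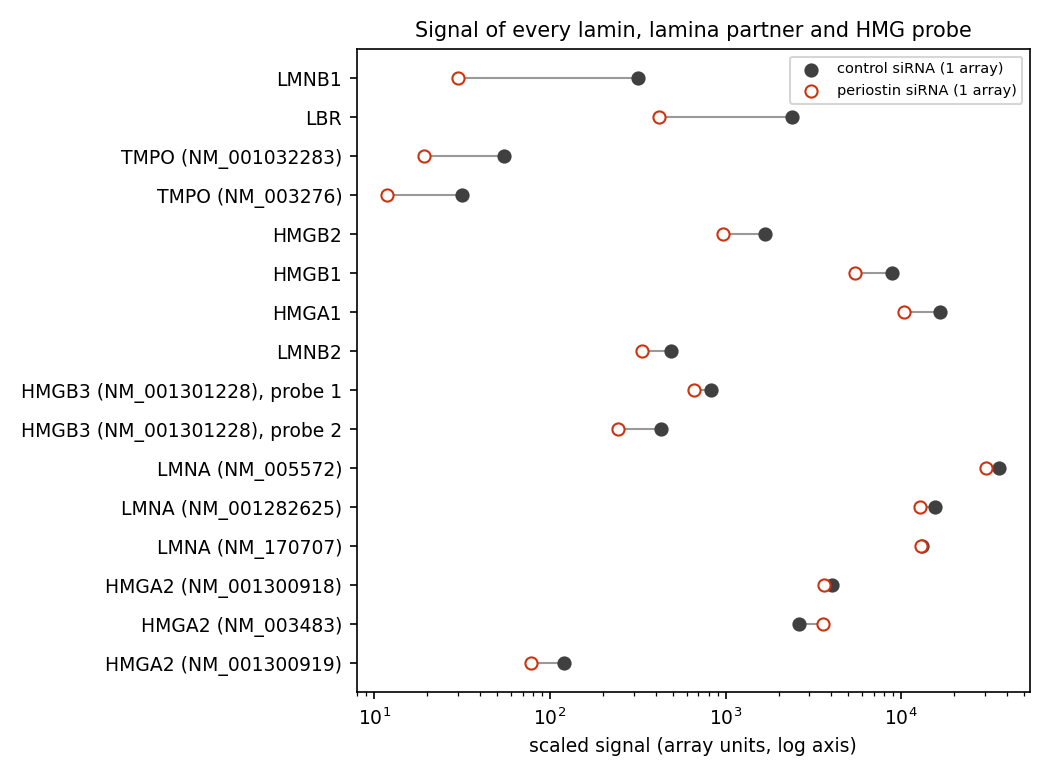
Scaled signal of the 16 probes (x axis, array units, log scale) on the control siRNA array (filled circles) and the periostin siRNA array (open circles), 1 array each. LMNB1 moved from 315 to 30.0 and LBR from 2397 to 420, while the 3 LMNA probes stayed between 12791 and 36062 on both arrays.

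The 3 lamin genes differed in their ratios. LMNB1 had a scaled signal of 315 with control siRNA and 30.0 with periostin siRNA, which left 9.51% of the control signal. This was 10.5-fold lower, with a log2 ratio of -3.40 and a propagated error of 0.22. The signal with periostin siRNA was still above the lowest signal flagged as well above background on that array, 7.77. The size of the LMNB1 ratio depended on the processing. It was 8.22-fold lower from the median pixel of the spot, which has no offset. It was 4.05-fold lower with normexp, a model of background fitted to the median brightness of all spots, with an offset added on both arrays. An added constant makes the ratio of dim signals smaller, so that the 4.05-fold value does not read background treatment alone. The shares of the model and of the offset were not tested. LMNB2 had signals of 490 and 334 and was 1.47-fold lower (log2 ratio -0.55, propagated error 0.20).

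LMNA was read by 3 probes. The probe designed on the lamin C transcript (NM_005572) had signals of 36062 and 30362, a log2 ratio of -0.25. The probe on the lamin A transcript (NM_170707) had signals of 13181 and 12957, a log2 ratio of -0.02, and that on NM_001282625 had 15616 and 12791, a log2 ratio of -0.29. Each LMNA ratio was 1.22-fold or less, and whether a probe also reads other transcripts of the gene was not tested. The log2 ratio of LMNB1 minus that of LMNA was -3.15 (propagated error 0.30), and minus that of LMNB2 it was -2.84 (propagated error 0.30). LMNB2 minus LMNA was -0.31 (propagated error 0.29), a difference about as large as its propagated error. The SD between repeated spots at the brightness of these probes, combined for both genes, was smaller, at 0.11. It covers the slide only. With the normexp model and its added offset, LMNB1 minus LMNA was -1.80 and LMNB1 minus LMNB2 was -1.57.

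Of the lamina partners, LBR, which binds lamin B and heterochromatin protein HP1 and also has sterol reductase activity, had a signal of 2397 with control siRNA and 420 with periostin siRNA. This left 17.5% of the control signal, or 5.71-fold less (log2 ratio -2.51, propagated error 0.20). The value was 5.55-fold lower from the median pixel and 5.09-fold lower with the normexp model, so that it changed little with the background. TMPO was read by a probe on the LAP2 beta transcript (NM_001032283), with signals of 54.6 and 19.2, and by another on the LAP2 alpha transcript (NM_003276), with signals of 31.4 and 11.9. Their log2 ratios were -1.51 and -1.40, with propagated errors of 0.25 and 0.32. These ratios lay 0.10 apart, and 30.5% of the 3153 genes with 2 probes had their probes closer together. All 4 TMPO signals were dim, and the call of more than 2-fold was lost with the normexp model and its added offset, under which TMPO was 1.40-fold lower. The log2 ratio of LBR minus that of LMNB1 was 0.88 (propagated error 0.30), and minus that of TMPO it was -1.01 (propagated error 0.33). The order of LBR and LMNB1 turned with the normexp model and its added offset, under which their difference was -0.33. With that model, LBR minus TMPO was -1.86. From the median pixel, which has no offset, LBR minus LMNB1 kept its sign, at 0.57.

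**Figure D2:**
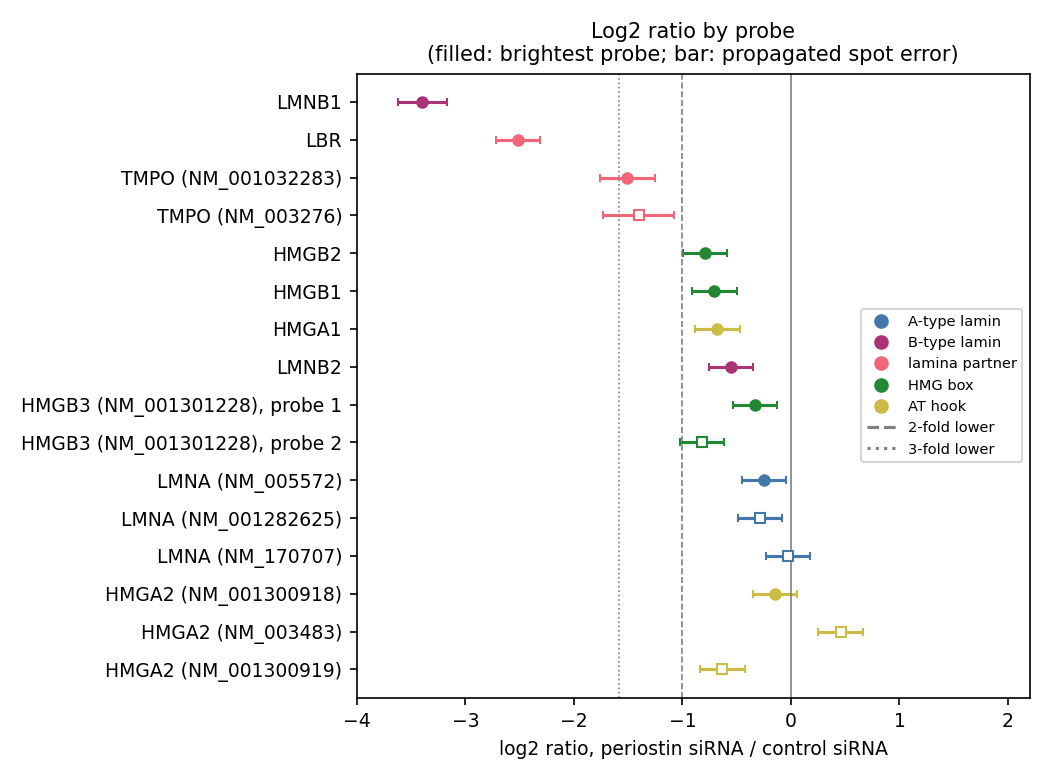
Log2 ratio (periostin siRNA over control siRNA) for each of the 16 probes (x axis), with bars for the propagated error of the spot signals on the 2 arrays. Filled circles mark the brightest probe of a gene and open squares its other probes. LMNB1, LBR and both TMPO probes lay left of the 2-fold line, and 1 HMGA2 probe lay right of 0, at 0.46.

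The promoters of LMNB1, LBR and TMPO are shown, since these genes had the lowest ratios. The sequences are the 250 bases before the annotated RefSeq start, 5′ to 3′ on the strand of the gene, on GRCh38.p14. Capitals mark the CCAAT box, a site bound by NF-Y in many cell cycle promoters, in either orientation (CCAAT or ATTGG).
LMNB1 start 1, chr5:126776373-126776622, plus strand: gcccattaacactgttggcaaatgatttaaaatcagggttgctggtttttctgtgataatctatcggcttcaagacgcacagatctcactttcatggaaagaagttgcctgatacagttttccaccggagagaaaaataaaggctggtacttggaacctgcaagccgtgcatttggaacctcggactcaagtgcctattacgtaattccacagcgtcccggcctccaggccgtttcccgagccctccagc
LMNB1 start 2, chr5:126776886-126777135, plus strand: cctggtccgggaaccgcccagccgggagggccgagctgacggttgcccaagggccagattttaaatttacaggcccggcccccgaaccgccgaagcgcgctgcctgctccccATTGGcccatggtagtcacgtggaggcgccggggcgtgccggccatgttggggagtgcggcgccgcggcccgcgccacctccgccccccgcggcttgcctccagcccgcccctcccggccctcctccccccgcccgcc
TMPO start 1, chr12:98515323-98515572, plus strand: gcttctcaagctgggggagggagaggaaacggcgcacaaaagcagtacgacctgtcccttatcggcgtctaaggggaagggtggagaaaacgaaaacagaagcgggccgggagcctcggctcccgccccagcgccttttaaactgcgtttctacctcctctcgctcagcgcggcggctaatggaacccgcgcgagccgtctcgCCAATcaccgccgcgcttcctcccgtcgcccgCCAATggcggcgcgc
LBR, chr1:225428822-225429071, minus strand: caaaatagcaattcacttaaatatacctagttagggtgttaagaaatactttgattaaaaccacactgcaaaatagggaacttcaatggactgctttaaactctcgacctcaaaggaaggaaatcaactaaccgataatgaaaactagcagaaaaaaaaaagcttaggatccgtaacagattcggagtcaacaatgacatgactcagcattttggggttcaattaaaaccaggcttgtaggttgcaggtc

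LMNB1 start 2 held 1 reversed CCAAT box 138 bases before the start, and TMPO start 1 held the box at 47 and 15 bases before the start. LMNB1 start 1 and LBR held none of the motifs searched. GC content was 75.6% before LMNB1 start 2, 64.8% before TMPO start 1, 48.4% before LMNB1 start 1 and 36.8% before LBR. Promoters of 8 of the 10 genes were matched, with 16 start sites in all, and those of HMGB2 and HMGA2 were not. Windows from 250 bases before to 50 after the start were searched on both strands. The CCAAT box was in 9 of the 16 windows, against 34.6% of all 35116 promoters, and the GC box (GGGCGG), to which SP1 binds, was in 12 of the 16, against 45.0%. The CHR element of late cell cycle promoters (TTTGAA) was in 3 of the 16 (HMGB1, LMNB2 and HMGB3), against 15.2%. The E2F motifs TTCCCGC and TTGGCGC were in 1 window (LMNA), against 9.23%, and TATAAA was in none, against 11.53%. Starts of a gene can lie close together and share bases, as those of TMPO do, and these letters describe the windows without showing that a factor binds there.

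The HMG box genes had smaller ratios. HMGB2, which is most abundant in dividing cells, had signals of 1666 and 961 and was 1.73-fold lower (log2 ratio -0.79, propagated error 0.20). HMGB1, an abundant chromatin protein that also acts as an alarmin when released, had signals of 8889 and 5452 and was 1.63-fold lower (log2 ratio -0.71, propagated error 0.20). The log2 ratio of HMGB2 minus that of HMGB1 was -0.09, within the propagated error of 0.29. HMGB3 was read by a pair of probes on the same transcript. The brighter had signals of 828 and 658 (log2 ratio -0.33), and the dimmer had 430 and 244 (log2 ratio -0.82). Their range of 0.48 was wider than that of 79.5% of the genes with 2 probes, and the log2 ratios of HMGB1 and HMGB2 lay between those of the HMGB3 probes. None of the 3 genes passed 2-fold by any probe.

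Of the AT-hook genes, HMGA1 had signals of 16543 and 10349 and was 1.60-fold lower (log2 ratio -0.68, propagated error 0.20). HMGA2 gave no single direction over its probes. The probe on NM_001300918 had signals of 4023 and 3627 (log2 ratio -0.15), that on NM_001300919 had 121 and 77.9 (log2 ratio -0.63), and that on NM_003483 had 2603 and 3575, a log2 ratio of 0.46. This range of 1.09, whose low end was the dimmest probe, was wider than that of 90.1% of the 598 genes with 3 probes. Among these 598 genes, 35.0% had probes on both sides of 0. The transcripts that the HMGA2 probes were designed on differ, and a difference between isoforms and one between probes cannot be told apart here. HMGB1, HMGA1 and other HMG genes have near-identical processed copies in the genome, and cross-hybridisation to them was not tested.

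The spread between spots on these arrays put the ratios in scale. For the 667 probes printed 10 times, the SD of the log2 ratio between spots of the same probe was 0.12 in all. By the signal averaged over both arrays on the log2 scale, it was 0.24 for probes at 13.5 to 136. LMNB1, both TMPO probes and the dimmest HMGA2 probe lay there. The SD was 0.05 for probes at 3054 to 120162, where LMNA, HMGB1 and HMGA1 lay. These SDs cover the slide only and leave out cultures, transfections and labelling reactions.

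**Figure D3:**
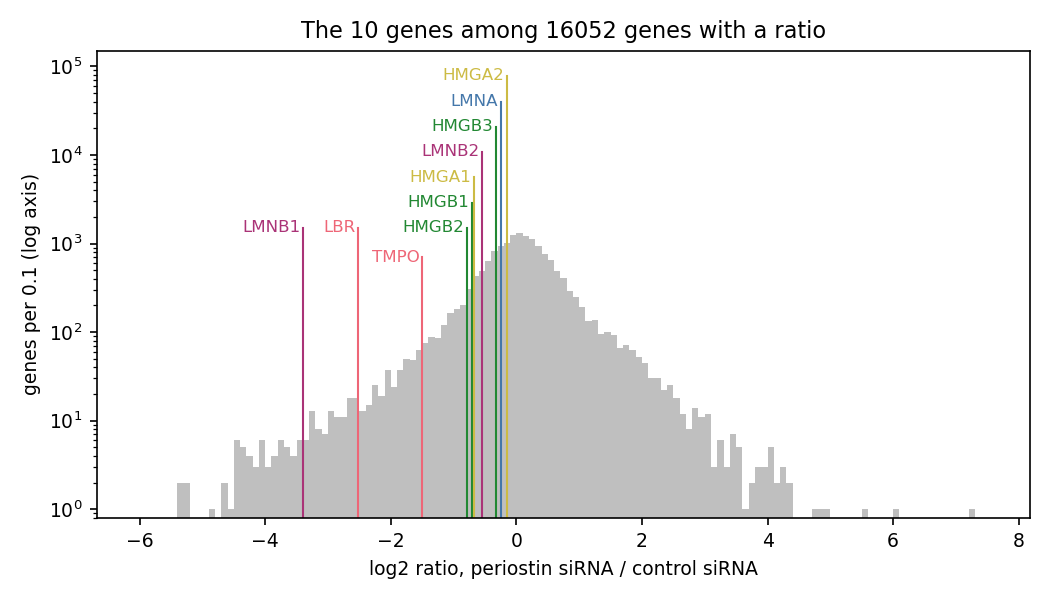
Distribution of the log2 ratio (periostin siRNA over control siRNA, x axis) over 16052 genes, as genes per bin of 0.1 (y axis, log scale), with a coloured line at each of the 10 genes. LMNB1, LBR and TMPO lay in the lower tail, and the other 7 genes lay between -0.79 and -0.15.

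Lists of related genes were described in the same way. The lamina network list held 20 other genes of the nuclear envelope, such as emerin, the LINC complex and the enzymes that process prelamin A. All 20 were measured, none passed 2-fold, and their median log2 ratio was -0.02. Its lowest members were TOR1A, a nuclear envelope ATPase, at -0.41 and ICMT, the methyltransferase that modifies farnesylated lamins, at -0.36. Its highest were FNTB, the beta subunit of farnesyltransferase, at 0.73 and SYNE1, a nesprin of the LINC complex, at 0.54, which by its dimmest probe was at -0.0916. The sign of this median turned when the arrays were not scaled (0.0204).

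Of 13 other HMG genes, 12 were measured, none passed 2-fold and their median was -0.10. HMGN2, a nucleosome-binding protein, had signals of 75156 and 47489 and a log2 ratio of -0.66, and its relative HMGN4 was at -0.62. HMGN5 was at 0.59 and HMG20B, a subunit of a histone demethylase complex, at 0.42. The ratios of HMGN2 and HMGN4 were of the size of those of HMGB1, HMGB2 and HMGA1.

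Of 15 heterochromatin genes, CBX3, which encodes HP1 gamma, was the single one past 2-fold, in either direction. It had signals of 13895 and 4260, or 3.26-fold less (log2 ratio -1.71). The median of this list was 0.06, as was that of all genes, and it turned to -0.0637 when the arrays were scaled on the median. CABIN1 was at -0.54, and ASF1A and SETDB1, a histone chaperone and a histone methyltransferase, were at 0.37 and 0.35. By its dimmest probe, SETDB1 was at 0.0451.

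Of 6 regulators of HMGA2, the mRNA-binding proteins IGF2BP3, IGF2BP1 and IGF2BP2 had log2 ratios of -0.31, 0.15 and 0.22 (-0.1019 by the dimmest probe of IGF2BP2), and DICER1, which cuts microRNA precursors, was at 0.30. LIN28A and LIN28B, which block the microRNA let-7, were not well above background on either array. Of 8 receptors and adaptors of extracellular HMGB1, 4 were measured. AGER, the receptor RAGE, had signals of 197 and 391 by its brightest probe (log2 ratio 0.99), and its log2 ratio was 0.43 by its dimmest probe. MYD88 was at 0.50, TLR9 at 0.15 (-0.0013 with quantile normalization) and LY96 at -0.09. TLR2, TLR4, CXCR4 and HAVCR2 were not well above background on either array.

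**Figure D4:**
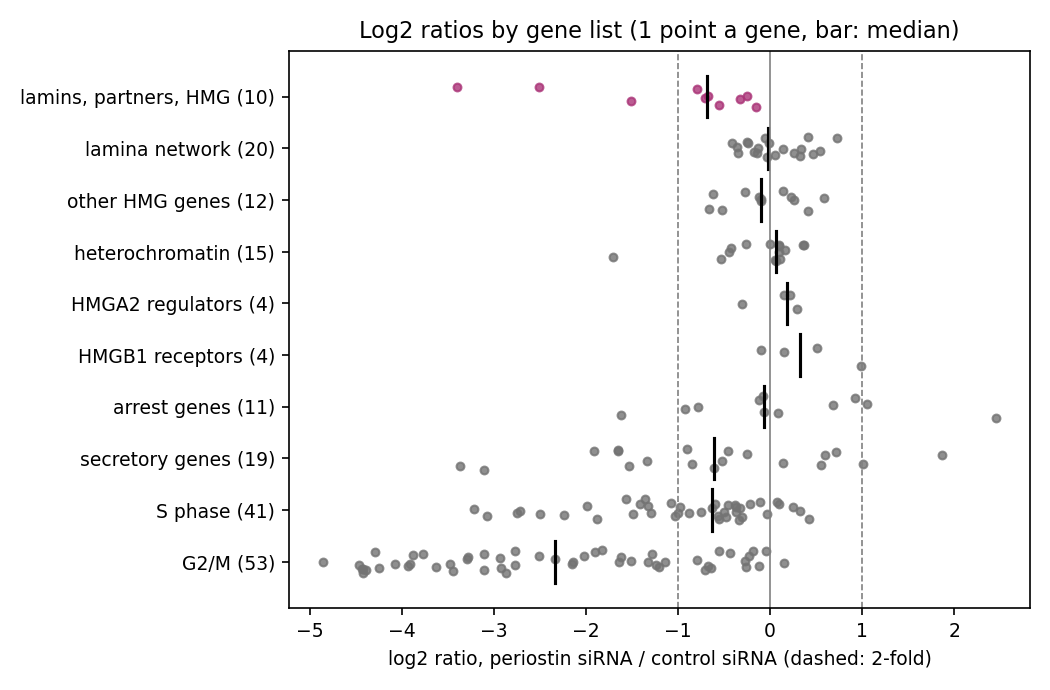
Log2 ratio (periostin siRNA over control siRNA, x axis) for the genes of each list (rows, with the number measured), 1 point a gene and a bar at the median. The lamina network list lay within 2-fold throughout, whereas the G2/M list had a median of -2.34.

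Growth arrest was read from genes of the cell cycle. In a widely used list of 54 G2/M genes, 53 were measured, 40 were lower by more than 2-fold, 34 by more than 3-fold, and the median log2 ratio was -2.34. LBR, TMPO and HMGB2 belong to that list, where they took ranks 26, 35 and 41 of 53 from the lowest ratio. Without them the median was -2.55. Its lowest genes were UBE2C, a ubiquitin-conjugating enzyme of the anaphase-promoting complex, at -4.85 and DLGAP5, a spindle protein, at -4.46, and its highest were CKAP5 at 0.15 and PSRC1 at -0.05. TOP2A, the topoisomerase of dividing cells, had signals of 377 and 19.9 (log2 ratio -4.24), and MKI67, the Ki-67 antigen, had 143 and 35.1 (log2 ratio -2.03). With the normexp model the median was -1.49, and UBE2C, DLGAP5, TOP2A and MKI67 were at -3.56, -2.49, -2.46 and -1.04. The log2 ratio of LMNB1 lay between those of MKI67 and TOP2A.

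Of 43 S phase genes, 41 were measured, 17 were lower by more than 2-fold and none was higher, with a median of -0.63. DTL was at -3.22 and CENPU at -3.07, whereas PCNA, the sliding clamp of DNA polymerase, was at 0.42 and UBR7 at 0.32. With the normexp model, 8 S phase genes were lower by more than 2-fold, with DTL at -1.41 and CENPU at -2.08. Periostin siRNA was given to whole cultures, and whether the lamin and HMG ratios would remain among cells of the same cell cycle phase was not tested.

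Senescence was read from 11 arrest genes and 20 secretory genes. CDKN1A, which encodes p21, had signals of 2625 and 2509 (log2 ratio -0.07), and CDKN2A, which encodes p16 and p14ARF, had 4517 and 4143 (log2 ratio -0.12). FUCA1, a lysosomal fucosidase, had 84.9 and 465 (log2 ratio 2.45) and CDKN1C, which encodes p57, had 1669 and 3467 (log2 ratio 1.05). CDKN2C, which encodes p18, had 341 and 111 (log2 ratio -1.62), and RB1 was at -0.93. FUCA1 was at 1.82 with the normexp model. The median of the arrest genes was -0.07, and its sign turned with the normexp model and from the median pixel.

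Of the secretory genes, 19 were measured, 7 were lower by more than 2-fold and 2 were higher, with a median of -0.61. IL6, the interleukin typical of the senescent secretome, had signals of 92.1 and 335 (log2 ratio 1.86), and the chemokine CXCL2 had 35.6 and 71.6 (log2 ratio 1.01). AREG, an epidermal growth factor receptor ligand, had 11910 and 1152 (log2 ratio -3.37), and the glycoprotein hormone STC1 had 526 and 61.2 (log2 ratio -3.10). STC1 was at -2.28 with the normexp model, and CXCL2 was at 0.52 with it and at 0.29 by its dimmest probe. LMNB1 was lower by more than 2-fold, and the HMGB genes by less than 2-fold. These ratios were measured beside CDKN1A and CDKN2A signals within 1.09-fold of the control, and beside secretory genes on both sides of 0. The arrays read RNA, and lamin B1 and HMGB protein were not measured.

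**Figure D5:**
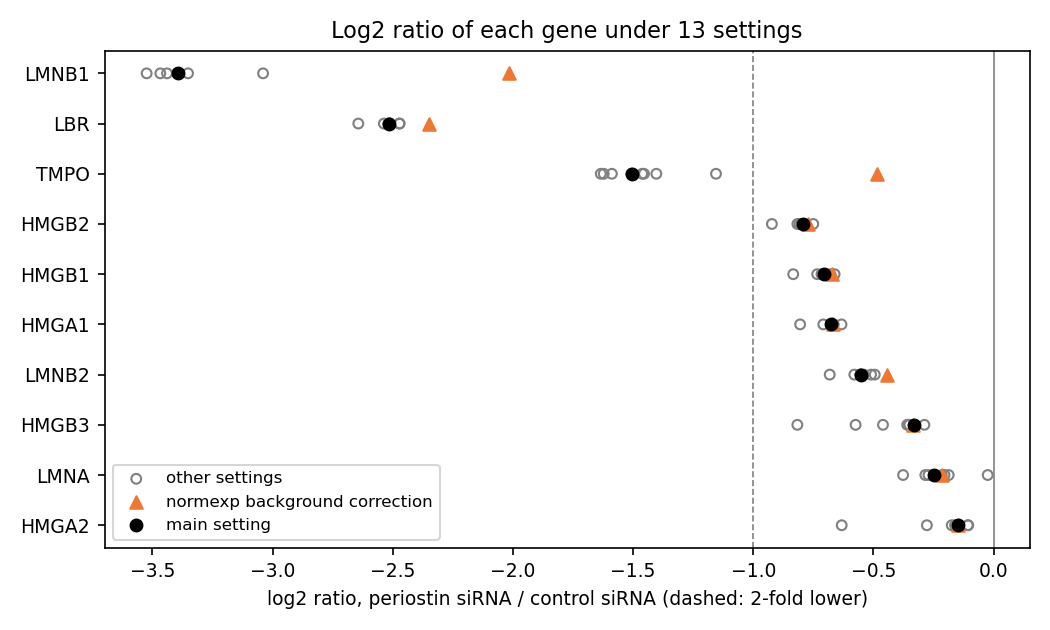
Log2 ratio of each of the 10 genes (x axis) under 13 settings of scaling, background, probe choice and filter, with black circles for the main setting and triangles for the normexp background model. All 10 genes stayed below 0 under every setting, LMNB1 ranged from -3.52 to -2.02 and TMPO from -1.63 to -0.48. No setting read HMGA2 from its probe at 0.46 alone.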

How the data were processed

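RNA of MRC-5 cells with control siRNA or periostin siRNA was hybridised to 2 arrays on the same slide, scanned together. The authors deposited scanner files with spot intensity values that Feature Extraction 11.5.1.1 had background-subtracted, per the file headers (the submitters' processing notes name 12.0.3.1), and a normalized intensity table, which for the 49697 probes printed once matched the scanner values times 1 constant per array within 0.1%. The array was annotated on hg19.

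Control spots were left out. Each array's log2 intensity values were centred on their 75th percentile over 58717 spots (372 and 383 before scaling, set to 377 for printed signals). Of these spots, 58.0% and 58.9% were well above background and none was saturated. The number of arrays limits the precision. Spots (65.1%) were named through RefSeq accessions on GRCh38.p14, and the brightest probe stood for a gene. A gene well above background on 1 array alone entered as a bound. Propagated errors combine the scanner's spot errors. No test was possible. Named from each list were the 2 genes with the lowest and the 2 with the highest ratio, besides all members, POSTN, CDKN1A, CDKN2A, MKI67 and TOP2A. The members and lists were chosen with earlier results of these data known.

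Alternatives were other scalings (median, none, spots above background, quantile, loess with a span of 0.3), normexp with an offset of 50, the median pixel, the deposited table, other probe rules and filters. Python 3.11.15 (numpy 2.4.6, pandas 2.3.3) and R 4.3.3 with limma 3.58.1 were used, and the scaling was tested on simulated data.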

Additional observations from a re-analysis of the deposited data

How the results depend on the processing

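The log2 ratios of the 10 genes, of POSTN and of the named list genes, the differences between members, and the medians and fold counts of the lists and of all genes were recomputed under 12 alternatives, of which the median pixel was chosen after seeing the data. Ranks, probe ranges, spot SDs and summed marker signals were not. The median log2 ratio of the 10 genes ranged from -0.82 to -0.58, with 2 to 3 genes lower by more than 2-fold and 2 to 3 by more than 3-fold. POSTN was at -2.99 with the normexp model. With it, 540 of all genes were lower and 530 higher by more than 2-fold (1031 and 1279 in the main setting), and 190 lower and 143 higher by more than 3-fold (441 and 541). The median of the lamina network list turned to 0.0204 without scaling, those of the heterochromatin list and of all genes to -0.0637 and -0.0735 with median scaling, and that of the arrest genes to 0.0368 with the normexp model and 0.0704 from the median pixel. The log2 ratio of LBR minus that of LMNB1 turned to -0.3311 with the normexp model and its offset, and was 0.57 from the median pixel. By the dimmest probe, HMGB2 minus HMGB3 and HMGB1 minus HMGB3 turned to 0.0226 and 0.1114, and SYNE1 and IGF2BP2 to -0.0916 and -0.1019. Ratios near 0 also turned, that of COL3A1 to -0.0023 with median scaling, those of TLR9 and VIM to -0.0013 and 0.024 with quantile normalization, and that of PDGFRB to 0.0115 with the normexp model and 0.0118 from the median pixel. With the normexp model, 8 S phase genes were lower by more than 2-fold (17 in the main setting). Secretory genes higher by more than 2-fold numbered 1 in place of 2 under 7 alternatives. The cause of these changes was not tested. The median of the G2/M list was -1.49 with the normexp model and -2.05 from the median pixel, and that of the secretory genes was -0.85 when genes dim on either array were dropped. No paired analysis was possible because there is 1 array a condition, and neither could be left out. Signal close to background limits TMPO and the periostin siRNA value of LMNB1.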
